A study of Hordeum vulgare with 24 samples.

Results

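Of 39734 barley gene identifiers counted, 102 stood higher in the HvMADS1 mutant (mads1) than in wild type (WT) by the same criterion at both temperatures and both stages. These members were chosen by measured values: the ratio of the mads1 to the WT group mean, each in CPM (reads per 1000000 counted reads of the library) plus 0.5, was at least 2 in all 4 settings. The ratios are therefore given as descriptions, with no test. The samples were inflorescences (developing spikes) of the cultivar Golden Promise, either WT or carrying the HvMADS1 mutation, in 8 groups of 3 RNA-seq libraries. Per the labels, day and night temperatures were 15 and 10 °C (LT) or 25 and 20 °C (HT) under a photoperiod of 16 h, and spikes were at Waddington stage W2.5 or W3.5, on a scale of spike development. The 4 settings are the pairings of a temperature with a stage, and each setting holds 1 WT and 1 mads1 group. Each library came from RNA pooled from 15 to 20 spikes and is a biological replicate per the labels. The sources used here do not give the kind of mutation, the allele or the breeding history of the mutant line. In whole spikes, fewer cells of a type and less RNA per cell cannot be told apart.

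HvMADS1 is a transcription factor of the MADS-box family, in its SEPALLATA clade. These proteins bind DNA in complexes with other MADS-box proteins and act in the identity of floral organs and floral meristems. In grasses, genes of this group also bear on spikelet development and inflorescence architecture. The tables used here pair none of the 102 identifiers with a gene name, so what each member does is not known here, and no sequence is printed. Identifiers of this kind carry a chromosome digit and an order number that rises along the chromosome, with digit 0 for genes placed on none.

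HvMADS1 itself (HORVU4Hr1G067680) is not a member; its identifier is known from the literature, since the tables name no gene. At LT W2.5 its level was 41.6 ± 2.22 CPM in WT (SD, n = 3 here and below unless given) and 17.6 ± 5.16 in mads1. The levels at LT W3.5 were 63.5 ± 3.6 and 46.2 ± 2.69 CPM. At HT W2.5 the mutant was not lower, at 8.63 ± 2.7 CPM in WT (n = 2) and 10.6 ± 2.74 in mads1, so total reads of the gene do not check the labels of those groups. WT at HT W3.5 stood at 64.8 ± 2.47 CPM. The 3 mads1 libraries at HT W3.5 read 0, 0.334 and 12.8 CPM. The mads1 libraries of the other groups read 8.63 to 49.1 CPM, so replicates 1 and 2 at HT W3.5 lay below all of these. Library totals ran from 13283533 to 19864259 counted reads, so 3 reads in 1 library stood at 0.151 to 0.226 CPM. WT_HT_W2.5 replicate 3 took a scaling factor of 0.574 when all 24 libraries were normalized together by TMM, against 0.958 to 1.08 in the others. It was left out of the criterion and of the tests below, so WT at HT W2.5 has n = 2, and values with it are given separately.

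The members fell into 3 classes by their reads in the 11 WT libraries used. There were 7 members with no read in WT. Another 57 had trace reads, with every WT group mean under 0.5 CPM, and 38 were graded, with at least 1 WT group mean of 0.5 CPM or more. Thus 62.7% of the members had no WT group mean of 0.5 CPM or more, an edge equal to the offset of the criterion. The same share over all identifiers with a read was not counted. The first and the trace class together held 34 members with no read in any of the 6 WT libraries at LT, and the graded class held 1.

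**Figure D1:**
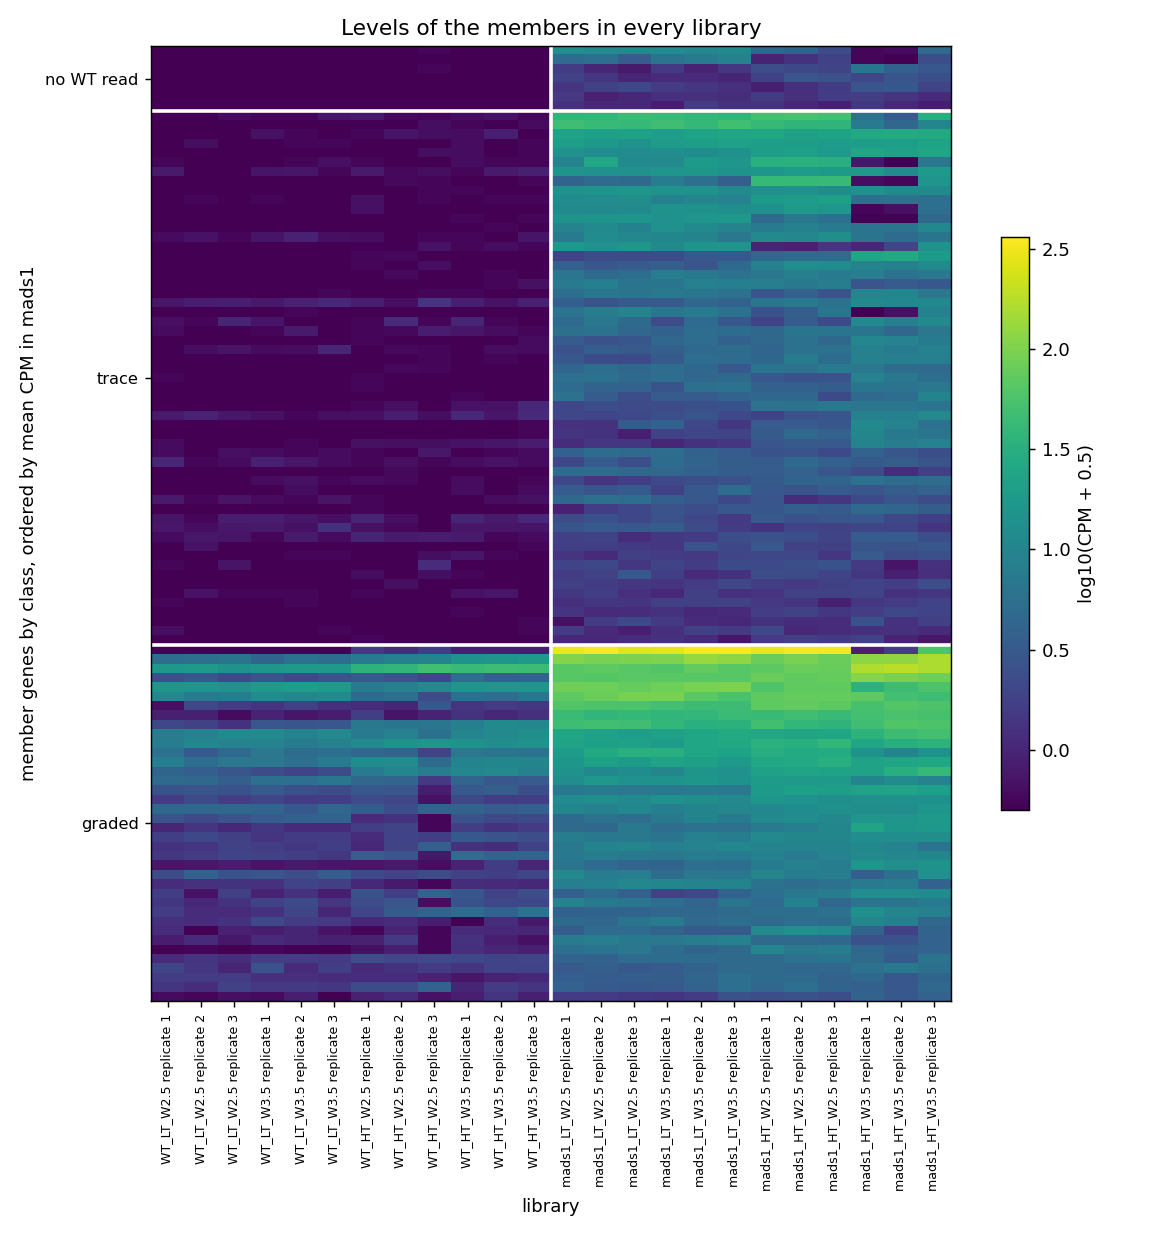
Levels of the 102 members (rows, in 3 classes) in each of the 24 libraries (columns), coloured by log10(CPM + 0.5). The WT columns are dark for the 7 members with no WT read and the 57 trace members. In 9 members mads1_HT_W3.5 replicate 3 is at least 5-fold above both replicates 1 and 2 (CPM plus 0.5).

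The members with no WT read were mostly low in mads1 as well. Their mads1 group means ran from 0.579 to 11.4 CPM. Per kilobase of gene length (FPKM), the highest of them in mads1 at LT were HORVU2Hr1G077370, at 8.48 FPKM at W2.5 and 14.6 at W3.5, and HORVU0Hr1G017950, at 7.62 and 7.32. The other 5 lay between 0.249 and 3.79 FPKM in the 4 mads1 group means.

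HORVU0Hr1G017950 read 12.3, 10.8 and 11.1 CPM in cool mads1 spikes of stage W2.5, and 11.5, 10.2 and 11.3 in those of W3.5. In the warm regime it read 3.98, 3.37 and 1.8 CPM at W2.5, and 0.0678, 0.111 and 4.36 at W3.5. Against a floor of 3 reads over the WT group, its mads1 mean was at least 205-fold higher at LT W2.5, and the same bound at HT W3.5 was at least 25.1-fold. The last value rests on replicate 3, since the other libraries of that group held 1 and 2 reads.

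HORVU2Hr1G077370 followed a like course, at 4.09 ± 1.17 and 7.04 ± 1.43 CPM in the cool mads1 groups. At HT W2.5 its mean was 0.863 ± 0.462 CPM, and at HT W3.5 the libraries read 0.0678, 0 and 1.85 CPM. Both identifiers thus read lower in warm than in cool mads1 spikes, and at HT W3.5 1 of 3 libraries carried most of their reads.

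HORVU6Hr1G019040 went the other way, with mads1 means of 0.905 ± 0.415 and 0.579 ± 0.0755 CPM at LT and of 1.89 ± 0.538 and 1.91 ± 0.421 at HT. HORVU5Hr1G005890 stayed between 0.653 and 1 CPM and HORVU2Hr1G108760 between 0.587 and 0.751 CPM in the 4 mads1 group means. HORVU1Hr1G011730 was at 1.26 ± 0.34, 0.917 ± 0.174, 0.738 ± 0.362 and 2.13 ± 0.591 CPM in the 4 groups, with LT before HT and W2.5 before W3.5. The floor bounds of these 4 in the 4 settings ran from at least 5.86-fold to at least 35.2-fold.

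The 57 trace members carried few reads in WT and more in mads1, over a wide range. Over the 11 WT libraries they held 686 reads in all, with a median of 4 per gene and 64 at most, and 15 of them held a single read. In the 12 mads1 libraries they held 75549 reads, from 142 to 7159 per gene. Their mads1 group means ran from 0.554 to 51.7 CPM. Their summed mean CPM in WT was 0.954% of that in mads1. Each of the 11 WT libraries held a read of 14 to 32 of the 57 genes.

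HORVU1Hr1G084310 held 16 reads over the 11 WT libraries and stood at 20.8 ± 0.936, 21.9 ± 2.66, 22.7 ± 2.55 and 27.2 ± 0.409 CPM in mads1, in the same order of groups. Its ratio to WT lay between 36.1 and 42.6 in the 4 settings. HORVU1Hr1G091950 held 3 WT reads and stood at 12.3 ± 1.16 and 12.7 ± 1.29 CPM at LT, and at 18.9 ± 1.88 and 22.9 ± 1.36 at HT. At 45.2 to 84.0 FPKM in mads1 it was one of the more abundant members per length.

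The 38 graded members reached 0.5 CPM in at least 1 WT group, though not always in each. HORVU2Hr1G031640 had no read in WT at LT, and HORVU2Hr1G020310 stood at 0.022 and 0.0184 CPM in WT there. Every mads1 library lay above every WT library in all 4 settings for 38 of 38. The same separation held for 53 of the 57 trace members and 6 of the 7 without a WT read, against 0.82% of the 27183 identifiers with a read. The criterion used these values, so nothing is read from that. Median ratios in the graded class were 4.43 and 4.32 at LT and 4.81 and 4.05 at HT, with W2.5 given first.

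HORVU3Hr1G015730 had the largest lowest ratio among graded members with at least 1 CPM in each WT group. Its WT libraries read 2.01, 2.51 and 1.7 CPM at LT W2.5 and its mads1 libraries 64.4, 63.0 and 66.8. Its ratio was 25.3, 26.1, 25.6 and 21.5 in the 4 settings, so it stayed within a narrow range. HORVU7Hr1G111810 was as steady at a lower ratio of 6.65 to 7.66. At LT W2.5 it stood at 1.33 ± 0.337 CPM in WT and at 11.7 ± 0.822 in mads1.

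Other graded members had ratios that differed between settings. At LT W2.5 HORVU4Hr1G061900 stood at 5.35 ± 0.492 CPM in WT and 100 ± 5.24 in mads1, a ratio of 17.2. At HT W3.5 it stood at 15.1 ± 1.4 and 134 ± 23.7 CPM, a ratio of 8.62. HORVU7Hr1G116060 had a ratio of 27.5 at LT W2.5 and of 5.43 at HT W3.5, with WT at 1.24 ± 0.413 and 9.69 ± 1.53 CPM and mads1 at 47.5 ± 1.67 and 54.8 ± 6.42. HORVU1Hr1G078880 had a ratio of 6.4 at LT W3.5 and 14.3 at HT W2.5, and HORVU5Hr1G125350 one of 8.52 at HT W2.5 and 2.97 at HT W3.5. Of the 38 graded members, 21 kept their 4 ratios within 2-fold of each other, as did 26 of 57 trace members and 2 of 7 without a WT read.

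The graded members with the highest WT level per length were HORVU3Hr1G055600, at 5.35 to 30.8 FPKM in WT and 38.0 to 98.0 in mads1, and HORVU2Hr1G009570, at 9.01 to 25.4 FPKM in WT and 37.8 to 96.4 in mads1. HORVU2Hr1G009570 was also close to the threshold, with a lowest ratio of 2.09 at HT W2.5. The other members just inside were HORVU6Hr1G095000, at 2.05 at HT W3.5, and HORVU0Hr1G016830, at 2.07 at HT W2.5. Just outside lay HORVU3Hr1G034230 at 1.97, HORVU1Hr1G040800 at 1.95 and HORVU5Hr1G125340 at 1.94.

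**Figure D2:**
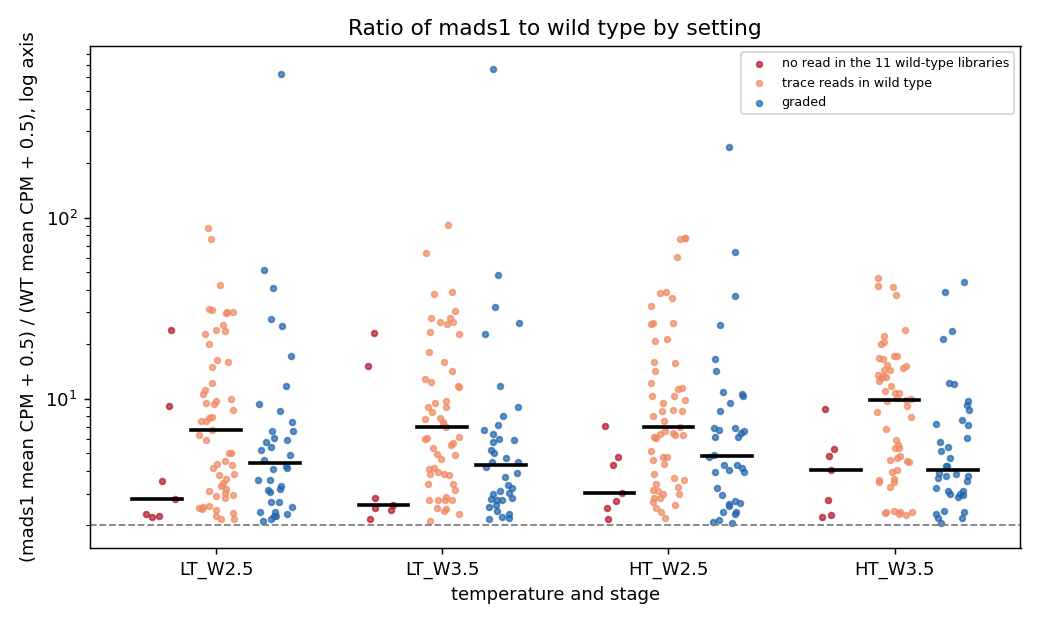
Ratio of mads1 to WT group mean CPM, each plus 0.5, for each member at each of the 4 settings on a log axis. Points are genes, black bars are medians, the dashed line is the threshold of 2, and the medians of the graded class lie between 4.05 and 4.81.

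In single settings the ratio was at least 2 for 247 identifiers at LT W2.5 and 283 at W3.5, and for 313 and 745 at HT. These are 0.909%, 1.04%, 1.15% and 2.74% of the 27183 identifiers with a read. The 102 members made up 41.3%, 36%, 32.6% and 13.7% of those lists. A further 50 identifiers met the ratio in exactly 3 settings, of which 20 missed it at HT W3.5 and 19 at HT W2.5. The mirrored criterion, a ratio of at most 0.5 in all 4 settings, held for 16 identifiers.

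Summed over the 102 members, the WT libraries read 108 to 191 CPM and the mads1 libraries 1335 to 1691. Without HORVU2Hr1G031640, the member with the highest mads1 mean, the mads1 libraries read 1159 to 1473 CPM. Members were shorter than the identifiers with a read, at a median of 1195 against 1349 bases of the length used for FPKM, and ran from 216 to 5168 bases. In mads1 their median level was 4.95 FPKM, against 3.06 for all identifiers with a read. By the criterion a member had to hold about 0.5 CPM or more in every mads1 group, so nothing is read from these levels.

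WT_HT_W2.5 replicate 3 played no part in the choice of members. The mads1 mean at HT W2.5 was at least 2-fold above that library for 97 of the 102 members, but 30.1% of all identifiers with a read met the same ratio; the library stands apart in its scaling factor. Of the 7 members with no read in the other WT libraries, 5 had none in it either, and HORVU0Hr1G017950 and HORVU3Hr1G108180 had 1 read each. Of the 57 trace members 31 had no read in it, and the highest count was 13.

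One subset of members split the 3 mads1 libraries at HT W3.5. In 9 members, replicate 3 was at least 5-fold above both other libraries (CPM plus 0.5), a threshold chosen after the values were seen. This was 8.82% of the members and 0.589% of the identifiers with a read, but the criterion used those means, so nothing is read from the comparison. No member was as far apart in any single library of the other 3 mads1 groups, nor in replicate 1 or 2 of this one.

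HORVU2Hr1G031640 shows the split most clearly. It read 306, 346 and 279 CPM in cool mads1 spikes of W2.5, 289, 345 and 361 in those of W3.5, and 301, 335 and 329 in warm ones of W2.5. The warm mads1 libraries of W3.5 read 0.407, 1.17 and 58.0 CPM. It had no read in the 6 WT libraries at LT, where mads1 was at least 5568-fold higher at W2.5, and 0.342 to 1.02 CPM in the 5 WT libraries used at HT. The first 2 mads1 libraries at HT W3.5 thus lay at or near the WT level there, and replicate 3 between them and the other mads1 groups.

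The other 8 were HORVU0Hr1G017950, HORVU1Hr1G082090, HORVU2Hr1G061570, HORVU3Hr1G098430, HORVU3Hr1G103520, HORVU6Hr1G009910, HORVU6Hr1G026820 and HORVU7Hr1G028510. HORVU2Hr1G061570 read 0, 0 and 4.1 CPM at HT W3.5, against 13.6 to 16.1 in the 6 mads1 libraries at LT. HORVU6Hr1G026820 kept more signal in the low libraries, at 5.5 and 2.78 CPM beside 31.5 in replicate 3. The identifiers of the 9 genes carry chromosome digits 0, 1, 2, 3, 6 and 7.

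HvMADS1 itself was at 0, 0.334 and 12.8 CPM in these 3 libraries, high in the same one. Without replicate 3, 9 members no longer met the criterion, 7 of them in this subset; the others were HORVU2Hr1G077370, whose reads at HT W3.5 lay in replicate 3, and HORVU6Hr1G095000, whose ratio there moved just under 2. Whether the 3 libraries labelled mads1 at HT W3.5 are alike in genotype could not be settled here, and every value of that group carries this doubt. What separates replicate 3 from the other libraries of this group was not tested.

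**Figure D3:**
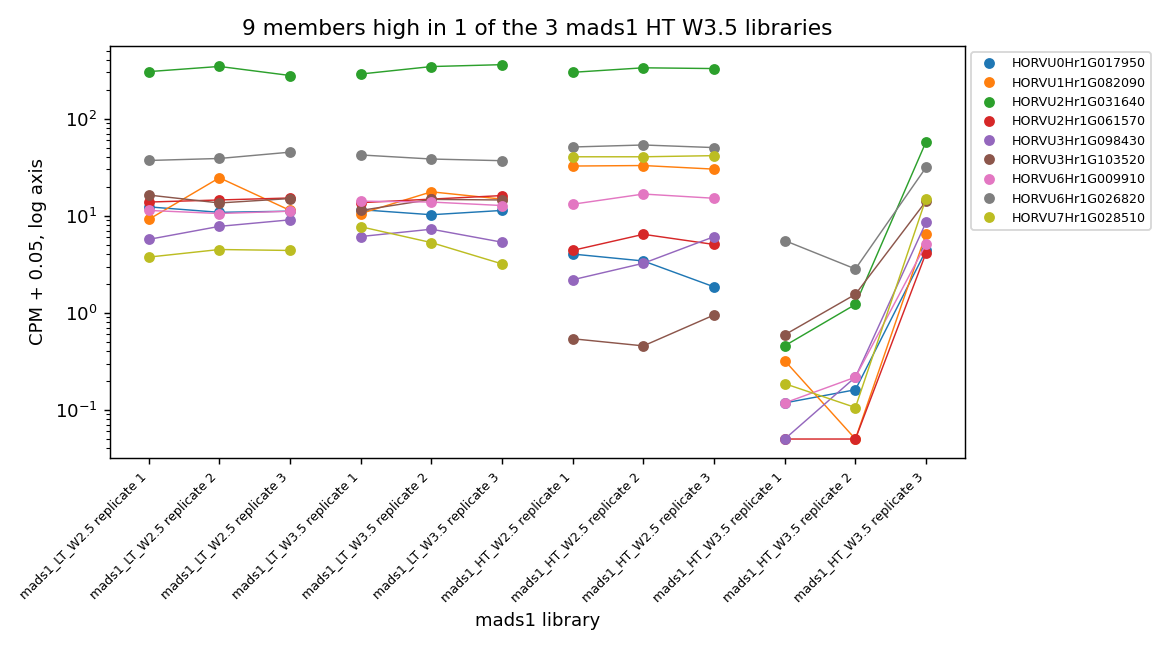
CPM plus 0.05 (log axis) of the 9 members that were at least 5-fold higher in mads1_HT_W3.5 replicate 3 than in replicates 1 and 2, in the 12 mads1 libraries. Lines join libraries of 1 group; in the other 3 groups no single library is as far above both others.

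By position the members were spread over the whole genome. Chromosome 2 held 28 of the 102, or 27.5%, while it holds 16.5% of the identifiers with a read. Chromosome 4 held 5 members (4.9%, against 11.5% of identifiers) and chromosome 5 held 8 (7.84% against 15.4%). Chromosomes 1, 3, 6 and 7 held 13, 15, 13 and 16, each within 2 percentage points of their share of identifiers, and 4 members carried digit 0. No test was run on these shares.

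Along chromosomes 1 to 7, each split by order number into 5 equal spans, the outer spans held 26 and 33 of 98 members, or 26.5% and 33.7%. The same spans hold 17.8% and 20.9% of the identifiers with a read. The inner spans held 11, 14 and 14 members. On chromosome 1 the 10 trace members had the order number 8830 in 1 case and lay from 72840 to 95430 in the others. This stretch was picked out after the positions were seen. Its share of the identifiers with a read was not counted, and no test was run.

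**Figure D4:**
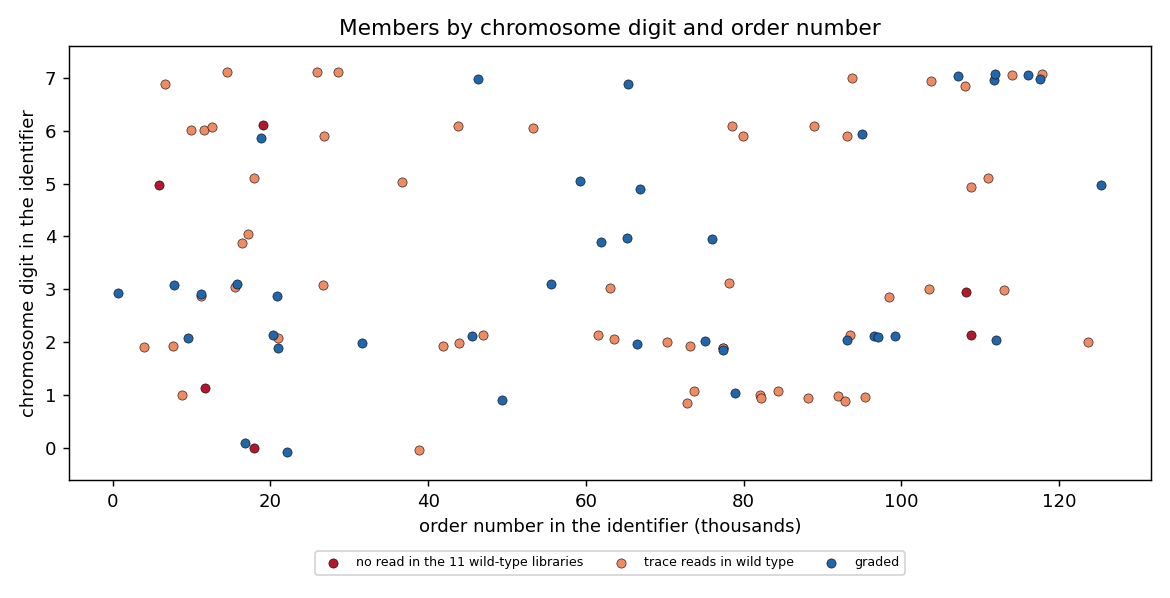
The 102 members by the chromosome digit (vertical axis) and the order number (horizontal axis, divided by 1000) in their identifiers, coloured by class, with small vertical offsets to separate points. Chromosome 2 holds 28 members, of which 2 had no WT read, 13 were trace and 13 were graded.

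Most members had no other member close by in order number. Of the 202 nearest neighbours with a read, 6 were members, while 102 of the 27183 identifiers with a read were. This difference was not tested. No run of 4 or more members lay within 500 order numbers of one another, and 21 members had another member that close, in 10 small groups. The 196 nearest neighbours with a read that are not members had a median ratio of 1 in each of the 4 settings. Between 2.04% and 4.59% of them were at least 2-fold higher in mads1, against 0.909% to 2.74% of all identifiers with a read. Between 2.04% and 2.55% had a ratio of at most 0.5, against 0.614% to 1.04%.

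The tightest group lay on chromosome 2, where the order numbers 77340, 77360 and 77370 are members. HORVU2Hr1G077360 stood at 0.404 ± 0.171 CPM in WT and 7.25 ± 0.635 in mads1 (LT W2.5), and HORVU2Hr1G077340 at 0.216 ± 0.0733 and 2.46 ± 0.194. HORVU2Hr1G077370 had no WT read. The identifier between them, HORVU2Hr1G077350, missed the criterion only at HT W3.5, with a ratio of 1.75 there and of 2.77 to 5.91 elsewhere, so that the 4 adjacent identifiers were higher in mads1 together. A pair on chromosome 5 was alike: HORVU5Hr1G125340, next to the member HORVU5Hr1G125350, had ratios of 4.76, 2.94, 8.99 and 1.94. Both were singled out after their values were seen. Adjacent identifiers can share reads where copies are near-identical, and the sources used here do not give the strand setting of the counting.

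Temperature and stage were compared within each genotype. The criterion did not use these contrasts, but it used the same group means, so it limits how far a member can move. With WT near 0, a member had to hold about 0.5 CPM or more in every mads1 group, and deep falls in mads1 are removed by the choice. The members' counts and medians below are therefore descriptions, and nothing is read from their distance to the background, which carries no such limit. All tests are edgeR quasi-likelihood tests in 1 fit to 23 libraries, with p-values adjusted over 18722 genes and calls at an adjusted p under 0.05. All 102 members passed the filter on low counts, the ones without WT reads through mads1 alone. The 8 simple comparisons share groups with one another, so their counts are not independent.

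In mads1 spikes at W2.5, 23 members were called higher at HT than at LT and 10 lower. These are 22.5% and 9.8% of the members, against a background of 16.5% and 14.5% of all genes tested. The median change was 0.31 on the log2 scale, against 0.01 for all genes. Among the trace members 13 rose and 7 fell, and among the graded ones 9 rose and 2 fell. With WT_HT_W2.5 replicate 3 in the fit 17 were called in all, and with only the compared groups 52.

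The largest called rise was in HORVU7Hr1G028510. It read 3.7, 4.44 and 4.34 CPM at LT and 40.5, 40.5 and 41.6 at HT (log2 fold change 3.30, SE 0.87, edgeR adjusted p = 0.0088). The libraries did not overlap. This gene is among those split at HT W3.5, and without mads1_HT_W3.5 replicate 3 and WT_HT_W2.5 replicate 3 the adjusted p was 3.1e-08. The call was lost with DESeq2 (3.29, adjusted p = 0.089) and with all 24 libraries in the fit (3.28, adjusted p = 0.067).

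The largest called fall was in HORVU3Hr1G103520, from 16.3, 13.5 and 15.0 CPM at LT to 0.49, 0.406 and 0.899 at HT (log2 fold change -4.64, SE 0.85, edgeR adjusted p = 0.00081). Here too the groups were wholly apart, and the HT libraries held 8, 7 and 14 reads. HORVU2Hr1G077370 also fell (-2.24, SE 0.76, adjusted p = 0.041), while HORVU0Hr1G017950 missed the threshold at -1.90 (SE 0.71, adjusted p = 0.06).

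At W3.5, 38 members rose with temperature in mads1 and 16 fell. The shares were 37.3% and 15.7%, beside 28.9% and 25.4% of all genes tested, and the median change was 0.34 against 0.04. Graded members accounted for 17 of the rises and 6 of the falls. Without mads1_HT_W3.5 replicate 3, 36 rose and 20 fell.

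HORVU2Hr1G020920, a trace member, rose most. It read 0.515, 0.802 and 0.923 CPM at LT and 9.02, 7.5 and 8.86 at HT (log2 fold change 3.53, SE 0.31, edgeR adjusted p = 1.3e-08). At W2.5 it had already risen, from 0.847 ± 0.167 to 2.56 ± 0.21 CPM (1.59, SE 0.31, adjusted p = 0.00061). In WT at W3.5 it also rose, from 0.0199 ± 0.0345 to 0.26 ± 0.0786 CPM (3.40, SE 0.77, adjusted p = 0.0026). Those WT libraries held 0, 1 and 0 reads at LT and 3, 4 and 6 at HT, so the size of that change rests on few reads.

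The largest fall at W3.5 was that of HORVU2Hr1G031640, by the values given above (log2 fold change -4.0, SE 0.85, edgeR adjusted p = 0.00083). Leaving out mads1_HT_W3.5 replicate 3, it was -8.67 (adjusted p = 9.3e-13). Without replicate 1 or 2 of that group it was -3.43 or -3.42. HORVU2Hr1G077370 fell (-3.43, SE 0.80, adjusted p = 0.0025), as did HORVU0Hr1G017950 (-2.83, SE 0.78, adjusted p = 0.0075). HORVU6Hr1G019040 rose (1.75, SE 0.40, adjusted p = 0.0024), and so did HORVU1Hr1G011730 (1.24, SE 0.38, adjusted p = 0.015).

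HORVU2Hr1G009570 rose from 66.0 ± 6.57 to 168 ± 11.7 CPM in mads1 at W3.5 (1.38, SE 0.09, edgeR adjusted p = 2.1e-10), and HORVU3Hr1G055600 from 12.5 ± 2.65 to 31.0 ± 9.76 (1.35, SE 0.21, adjusted p = 2.0e-05). HORVU5Hr1G125350 fell from 92.8 ± 6.99 to 45.4 ± 10.9 CPM (-0.99, SE 0.14, adjusted p = 5.1e-06). Of the graded members with a steady ratio, HORVU3Hr1G015730 rose (0.58, SE 0.10, adjusted p = 6.8e-05) and HORVU7Hr1G111810 was not called (0.14, SE 0.14, adjusted p = 0.4).

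**Figure D5:**
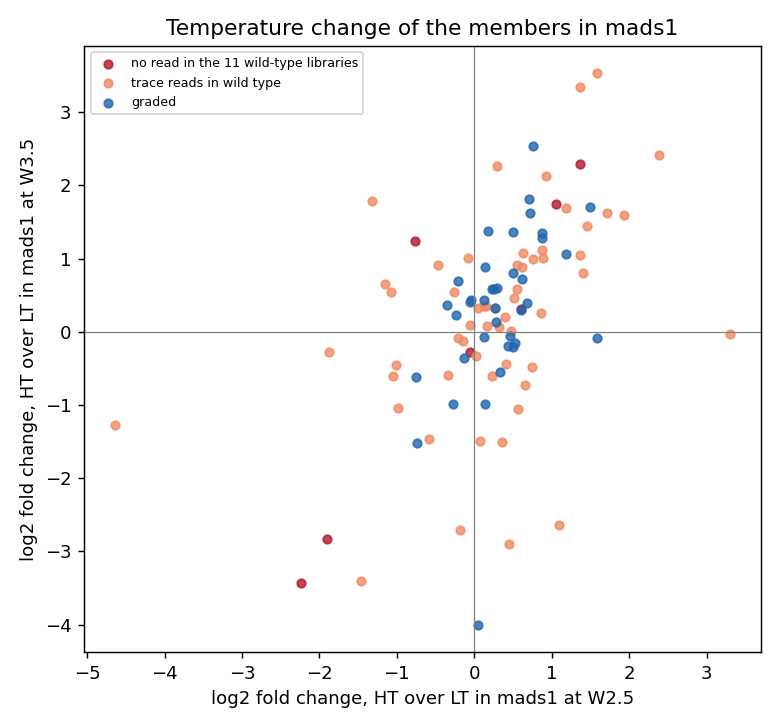
Log2 fold change of HT over LT in mads1 for each of the 102 members, at W2.5 (horizontal) and W3.5 (vertical), coloured by class. HORVU2Hr1G031640 lies near 0 at W2.5 and at -4.0 at W3.5, and HORVU3Hr1G103520 lies at -4.64 at W2.5.

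Few members were called between stages in the cool regime. In mads1 at LT, 1 member was called higher at W3.5 than at W2.5 and 1 lower (0.98% each, against 4.19% and 3.39% of all genes). HORVU2Hr1G045590 rose from 4.29, 5.36 and 4.82 CPM to 6.75, 9.19 and 7.2 (log2 fold change 0.66, SE 0.15, edgeR adjusted p = 0.0087), a call lost without mads1_LT_W3.5 replicate 2 (adjusted p = 0.071), with only the compared groups (0.068) and with all 24 libraries (0.25). HORVU7Hr1G116060 fell from 46.1, 49.4 and 47.0 to 38.2, 31.8 and 33.5 CPM (-0.48, SE 0.14, adjusted p = 0.035). Leaving out 1 of these 6 libraries at a time ended the call in 5 cases, and so did fitting all 24 libraries (adjusted p = 0.54).

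In mads1 at HT, 24 members were called higher at W3.5 and 17 lower. These shares of 23.5% and 16.7% stood beside 14.8% and 14.4% of all genes. Without mads1_HT_W3.5 replicate 3, 23 rose and 23 fell, and with WT_HT_W2.5 replicate 3 in the fit 23 were called in all. HORVU3Hr1G103520 showed the largest called rise (3.21, SE 0.88, edgeR adjusted p = 0.013), which rests on that library, since without it the change was 0.81 (adjusted p = 0.18). The call was also lost without mads1_HT_W2.5 replicate 2 (adjusted p = 0.051). HORVU2Hr1G031640 showed the largest called fall (-3.98, SE 0.85, adjusted p = 0.0023), and -8.61 without that library. With only the compared groups fitted this call was lost (-3.95, adjusted p = 0.082), as was that of HORVU3Hr1G103520 (3.22, adjusted p = 0.11).

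In WT the tests bear almost wholly on the graded class, since the other members have few or no reads there. Shares below are of all 102 members, of which 38 are graded. At W2.5, 10 members rose at HT and 4 fell (9.8% and 3.92%, background 9.34% and 7.71%), and the 14 were graded. At W3.5, 17 rose and 4 fell (16.7% and 3.92%, background 13.7% and 12.2%), of which 14 and 4 were graded. HORVU7Hr1G116060 rose in WT at both stages (2.32, SE 0.23, edgeR adjusted p = 1.6e-06 at W2.5, and 2.01, SE 0.18, adjusted p = 1.6e-07 at W3.5). HORVU2Hr1G009570 did so too, by 1.20 (SE 0.10, adjusted p = 2.4e-07) and 1.45 (SE 0.09, adjusted p = 2.4e-09).

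Between stages in WT, 2 members rose and none fell at LT (1.96% and 0%, background 2.14% and 1.39%); 4 members were lower there at an unadjusted p under 0.05, and DESeq2 called 1 lower. At HT 7 rose and 1 fell (6.86% and 0.98%, background 5.01% and 6.43%). The counts at HT rest on few libraries, and none was called without WT_HT_W2.5 replicate 1. HORVU5Hr1G125350 rose from 7.55 ± 0.925 (n = 2) to 15.0 ± 0.435 CPM in WT at HT (0.99, SE 0.19, edgeR adjusted p = 0.0015).

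Few members were called for temperature in both genotypes. At W2.5, 3 were called in the same direction (2.94%, against 11.9% of all genes tested) and 1 in opposite directions (0.98% against 0.256%). At W3.5 the numbers were 15 (14.7% against 22.1%) and 1 (0.98% against 0.278%). Most members have few or no WT reads, which limits calls there, though 3 trace members were called higher at HT in WT at W3.5. Nothing is read from the distance of these shares to the background.

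The gene called in opposite directions was HORVU2Hr1G045590 at both stages. In WT at W2.5 it read 2.22, 1.65 and 2.18 CPM at LT and 0.6 and 0.828 at HT (log2 fold change -1.52, SE 0.25, edgeR adjusted p = 0.00028). In mads1 it read 4.29, 5.36 and 4.82 CPM at LT and 11, 12.1 and 9.95 at HT (1.19, SE 0.15, adjusted p = 7.7e-06). At W3.5 the changes were -0.82 in WT (SE 0.17, adjusted p = 0.0016) and 1.06 in mads1 (SE 0.14, adjusted p = 3.8e-06). It fell with warmth in WT and rose in mads1, and its ratio went from 2.12 and 2.21 at LT to 9.49 and 7.14 at HT. The difference between genotypes entered the choice of members and was not tested.

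Last, the temperature change in mads1 was compared between the stages. The log2 change at W3.5 minus that at W2.5 was called above 0 in 13 members and below 0 in 10 (12.7% and 9.8%, background 6.75% and 8.16%). HORVU7Hr1G093790 had the largest called positive difference. It went from 4.29, 6.4 and 4.34 CPM at LT to 1.41, 2.9 and 1.67 at HT at W2.5, and from 1.77, 4.5 and 2.59 to 11.1, 8.06 and 10.8 at W3.5 (difference of log2 changes 3.10, SE 0.69, edgeR adjusted p = 0.005). With all 24 libraries in the fit the call was lost (3.09, adjusted p = 0.072). Its libraries did not overlap at either stage. HORVU2Hr1G031640 had the largest called negative difference (-4.06, SE 1.10, adjusted p = 0.021), and -8.71 without mads1_HT_W3.5 replicate 3. Its call was lost with DESeq2 (adjusted p = 0.077), with robust estimation (0.057), with only the compared groups (0.07) and with all 24 libraries (0.21). Without that library the counts were 11 and 18, and with WT_HT_W2.5 replicate 3 in the fit 4 members were called.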

How the data were processed

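Libraries were made with a TruSeq RNA kit from pooled spikes, per the labels' protocols. HISAT2 and HTSeq are named in the submitters' processing notes; the sources used here give no version, build, annotation or strand setting. Read counts per identifier were used as deposited by the authors. Deposited FPKM values are these counts over gene length and library total (lengths it implies differed between libraries by a relative 9.92e-08 at most), and served for comparing levels between genes.

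CPM is the count over the column total. Tests used edgeR 4.0.16 in R 4.3.3: filterByExpr, TMM, 8 group means, quasi-likelihood F tests and Benjamini-Hochberg adjustment. The standard error was taken as the absolute log2 fold change divided by sqrt(F). On simulated counts for temperature in mads1 at W2.5 (17957 genes tested, 200 changed), the test called 89% of the 2-fold changes and 99% of the 4-fold ones, with 5.05% false calls. The changed genes had at least 1 CPM in mads1 at LT W2.5, and dispersions came from the fit to the real counts. These rates do not cover members below that level. Alternatives were DESeq2 1.42.0, RLE factors, no filter, robust estimation, other library sets, a replicate block and each library left out. Members, classes and tests were chosen with earlier results of these data known. Named genes followed a written rule (highest levels, largest ratios, nearest the threshold, largest called change per comparison within mads1), with exceptions stated. Floors cover counting error only.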

Additional observations from a re-analysis of the deposited data

Results flagged for a closer look

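In 8 named members the change with temperature in mads1 differed between W3.5 and W2.5 by edgeR's interaction test. Besides HORVU7Hr1G093790 (3.10) and HORVU2Hr1G031640 (-4.06), the difference of log2 changes was 2.01 for HORVU1Hr1G011730 (SE 0.56, edgeR adjusted p = 0.029) and 1.94 for HORVU2Hr1G020920 (SE 0.44, 0.0059). It was 1.20 for HORVU2Hr1G009570 (SE 0.12, 8.6e-06) and 0.92 for HORVU7Hr1G116060 (SE 0.19, 0.0033). It was -1.12 for HORVU6Hr1G095000 (SE 0.28, 0.011) and -0.72 for HORVU5Hr1G125350 (SE 0.19, 0.016).

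In 6 named members every library moved one way in mads1 and the opposite way in WT; these differences between genotypes were not tested. For temperature, the log2 difference in HORVU2Hr1G045590 was 1.19 in mads1 and -1.52 in WT at W2.5, and 1.06 and -0.82 at W3.5. In HORVU4Hr1G061900 it was -0.23 and 0.55 at W2.5, neither called. In HORVU2Hr1G031640 it was -4.0 in mads1 at W3.5, while its WT libraries of that stage had no read at LT and 6 reads each at HT. For stage, it was -0.48 in mads1 and 0.95 in WT at LT for HORVU7Hr1G116060. At HT it was -0.56 and 0.99 in HORVU5Hr1G125350, and -1.18 and 0.60 in HORVU6Hr1G095000, where the WT value was not called.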

How the results depend on the processing

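The number of members was 161 with an offset of 0.1 CPM in place of 0.5 and 57 with a ratio of 3 in place of 2, and 94 to 104 with each library left out. Members with no WT read numbered 28 with an offset of 0.1, 1 with an offset of 1, 13 with a ratio of 1.5, 1 with a ratio of 3, and 5 to 12 with each library left out. No run of 4 or more members appeared at either other gap. With all 24 libraries in the fit, whose common dispersion was 0.0685 against 0.0173, calls fell to 17 from 33 for temperature in mads1 at W2.5, to 23 from 41 for stage in mads1 at HT, to 4 from 23 for the interaction, and to 0 from 2 for stage at LT in each genotype. With only the compared groups fitted, 52 were called for temperature in mads1 at W2.5, 1 for stage in mads1 at LT and 0 for stage in WT at LT. DESeq2 called 5 for stage in mads1 at LT. Without the filter on low counts, 1 was called for stage in WT at LT.

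With each library of the compared groups left out, calls ranged from 24 to 30 and from 48 to 58 for temperature in mads1 at W2.5 and W3.5, from 0 to 3 and from 34 to 46 for stage in mads1 at LT and HT, and from 18 to 29 for the interaction. In WT they ranged from 9 to 14 (15 without WT_HT_W2.5 replicate 3 and mads1_HT_W3.5 replicate 3) and from 19 to 22 for temperature, and from 0 to 1 and from 0 to 7 for stage at LT and HT. The lone WT_HT_W2.5 library left in some of these fits is assumed to vary like the other groups.

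The replicate numbers were checked as a pairing. Deviations from group means correlated at a median of 0.0168 between same-numbered libraries of different groups (range -0.449 to 0.359). Between other-numbered ones the median was -0.00967 (range -0.428 to 0.48). The main tests used no pairing, and whether same-numbered libraries shared a batch was not tested. With the replicate block, 1 member was called for stage in WT at LT, and the counts of the other 8 comparisons moved by less than 1.5 times. The 10 largest called rises and falls within mads1 were compared under these alternatives and none changed sign. Other named changes were not compared in this way.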
